A study of Homo sapiens with 6 samples.

Results

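CD47, its ligands and the proteins known to carry its signals were followed as mRNAs in extracellular vesicles (EVs) released by T cells. The members were all probe sets listed with exactly 1 gene symbol, where that symbol is one of CD47, SIRPA, SIRPG, THBS1, UBQLN1, UBQLN2, GNB1, GNAI2, GNAI3 and BNIP3. These 10 of 18417 genes had 11 of the 33297 probe sets on the array, GNAI2 having 2 and the others 1 each, and no probe set with several symbols named any of them. RNA of 3 EV preparations from JinB8 cells and 3 from WT Jurkat cells was measured on Affymetrix HuGene arrays, whose probes lie along whole human transcripts. Jurkat is a human T cell leukemia line, and JinB8 (CD47-) is a somatic mutant of it that lacks CD47. Each genotype is a single cell line, so a loss of CD47 cannot be told apart from any other difference between the lines. Both lines were grown without drug for 24 to 48 h in HITES, a serum-free medium with insulin, transferrin, selenite, hydrocortisone and albumin, and 300 ng of total RNA was labeled for each array. The submitters name Exo-quick or Exo-spin for the isolation of the EVs and do not say which preparation had which. They describe replicates in cell culture, so the p values measure the spread between these preparations, which may be partly technical.

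CD47 is a membrane protein known as a marker of self. On phagocytes it is recognized by SIRPA, and on T cells by SIRPG, while the secreted matrix protein thrombospondin-1, encoded by THBS1, uses it as a signaling receptor. The short tail of CD47 inside the cell binds the ubiquilins UBQLN1 and UBQLN2, which link it to the beta and gamma subunits of heterotrimeric G proteins such as GNB1, and CD47 acts with inhibitory alpha subunits such as GNAI2 and GNAI3. BNIP3, a protein of the outer mitochondrial membrane, is known as a CD47 partner in a form of T cell death.

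The start regions of 4 of these genes are shown because CD47 is the gene whose protein JinB8 cells lack, GNB1 and UBQLN1 were the members whose mRNA rose, and UBQLN2 is the close relative of UBQLN1 whose mRNA did not pass the test. The sequences are from RefSeq, build GRCh38.p14, and run 5′ to 3′ on the strand of the gene for 300 bases, 250 before the start of the transcript and 50 after it. They are CD47 at chr3:108090982-108091281 (minus strand), UBQLN1 at chr9:83707909-83708208 (minus strand), UBQLN2 at chrX:56563377-56563676 (plus strand) and GNB1 at chr1:1891038-1891337 (minus strand). Capitals mark matches on either strand to the palindromic site of the factor NRF1, to ACGTG, the core of the hypoxia response element, and to GGGCGG, the GC box.
CD47: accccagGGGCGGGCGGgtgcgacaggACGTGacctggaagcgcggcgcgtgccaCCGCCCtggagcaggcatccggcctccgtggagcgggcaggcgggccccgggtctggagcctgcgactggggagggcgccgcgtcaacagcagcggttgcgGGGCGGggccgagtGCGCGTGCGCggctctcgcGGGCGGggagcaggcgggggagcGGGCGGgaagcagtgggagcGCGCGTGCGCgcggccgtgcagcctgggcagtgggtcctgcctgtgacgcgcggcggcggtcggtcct
UBQLN1: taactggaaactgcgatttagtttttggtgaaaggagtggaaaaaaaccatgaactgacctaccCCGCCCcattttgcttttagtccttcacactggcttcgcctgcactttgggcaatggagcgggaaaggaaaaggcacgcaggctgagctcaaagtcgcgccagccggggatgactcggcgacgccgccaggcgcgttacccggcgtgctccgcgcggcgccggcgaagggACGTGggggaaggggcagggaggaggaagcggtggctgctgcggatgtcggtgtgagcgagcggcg
UBQLN2: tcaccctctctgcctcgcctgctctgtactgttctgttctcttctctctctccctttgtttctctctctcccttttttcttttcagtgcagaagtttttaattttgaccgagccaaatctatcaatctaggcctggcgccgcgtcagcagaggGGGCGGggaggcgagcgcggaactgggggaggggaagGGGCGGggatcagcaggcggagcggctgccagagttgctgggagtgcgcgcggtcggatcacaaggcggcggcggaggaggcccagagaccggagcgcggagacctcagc
GNB1: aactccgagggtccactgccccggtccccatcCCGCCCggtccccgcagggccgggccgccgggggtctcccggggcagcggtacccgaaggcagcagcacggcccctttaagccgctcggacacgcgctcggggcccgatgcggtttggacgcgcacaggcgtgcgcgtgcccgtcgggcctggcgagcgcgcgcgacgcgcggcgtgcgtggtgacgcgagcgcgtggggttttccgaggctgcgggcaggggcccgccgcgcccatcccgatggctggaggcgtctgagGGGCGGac
CD47 held 2 matches to the NRF1 site, 1 to ACGTG and 6 to the GC box, of which 2 overlap each other. UBQLN1 held 1 match to ACGTG and 1 to the GC box, and UBQLN2 and GNB1 each held 2 matches to the GC box. Matches to different motifs did not overlap in any member. Of the 10 genes, 8 had a start region in this table, GNAI2 having 3, which made 10 regions. Of these regions 2 held the NRF1 site, 4 held ACGTG and 8 held the GC box. Over all 35116 start regions of this length the shares were 5.78%, 21.4% and 45.0%. BNIP3, a known target of the hypoxia response, was the other gene with the NRF1 site, with 3 matches. It held 2 matches to ACGTG, which overlap on opposite strands of a single CACGTG. These matches describe letters and show no binding.

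The arrays were compared on the log2 scale of robust multi-array average (RMA), on which 1 unit is a doubling, and a value is a relative level in the RNA of an EV preparation. Fewer EVs of a kind and less of an mRNA per EV cannot be told apart on such a scale. The 6 arrays correlated with r from 0.982 to 0.989 across the 19460 probe sets with 1 symbol, and the number of arrays limits the precision. A gene was called higher or lower at an adjusted p under 0.05 from limma, with 1 fit and 1 Benjamini-Hochberg adjustment for all 19460 probe sets. As a rough gauge of background, the median was 5.46 and the 95th percentile 6.78 for 360 probe sets of olfactory receptors (OR), genes usually silent outside the nose.

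Of the 11 member probe sets, 2 were higher in CD47- EVs, those of GNB1 and UBQLN1, and 0 were lower. The members were chosen with earlier results of these data known, so the shares over all probe sets describe them and test nothing. Over all probe sets with 1 symbol, 0.709% were higher and 0.0154% lower, and 1.52% of those brighter than the OR median were higher. This last share is not of like sets, since CD47, UBQLN2 and GNAI3 lay below that median. Brightness was the mean of all arrays, so a probe set such as that of UBQLN1 entered only through its CD47- values. The members had a median log2 fold change of 0.08 and 8 of 11 were above 0, against a median of 0.0036 and 10023 of 19460 above 0 over all probe sets. In 4 member probe sets, of GNB1, UBQLN1, GNAI2 and BNIP3, each CD47- array lay above each WT array, a separation found in 7.39% of all probe sets. In 0 did each CD47- array lie below each WT array, against 5.51% of all probe sets, and 12.9% were separated in either direction.

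**Figure D1:**
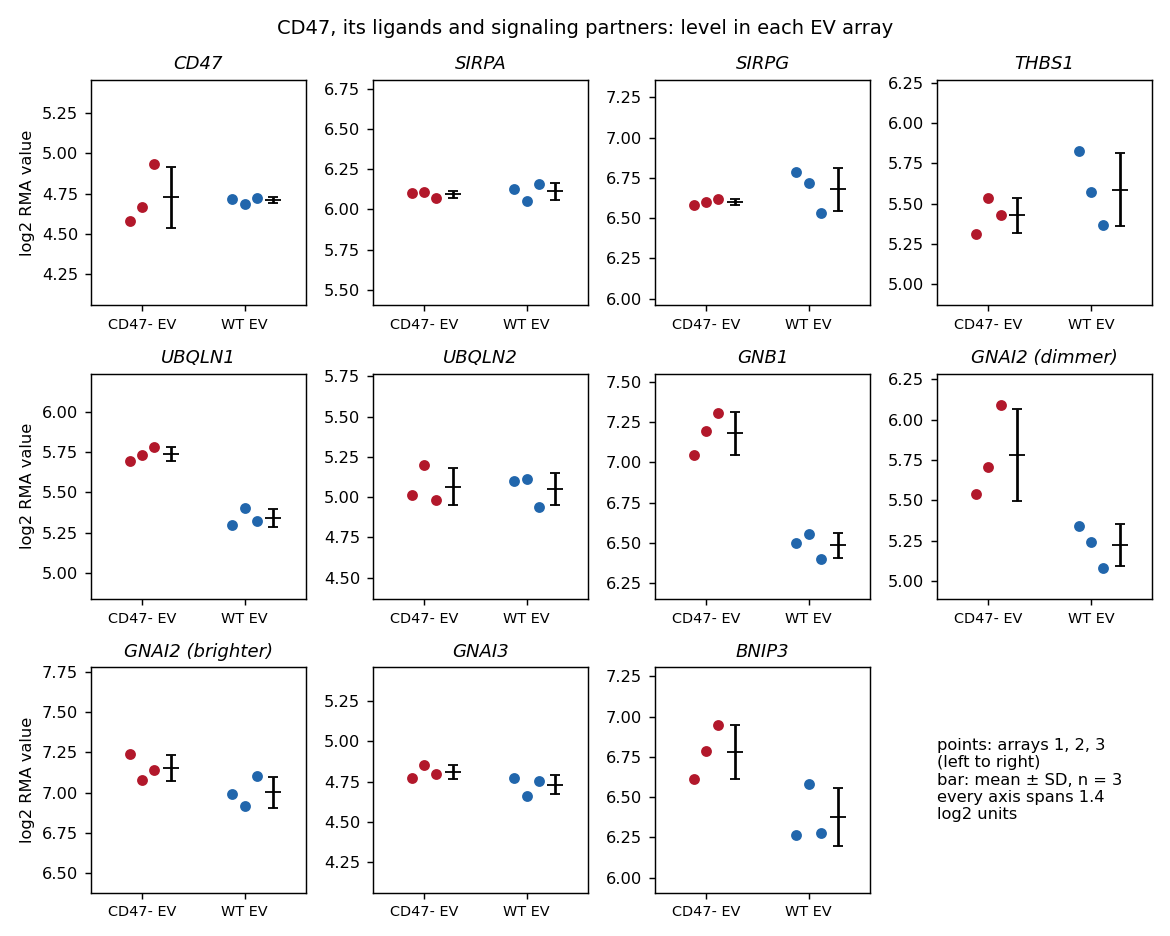
log2 RMA value (vertical axis, spanning 1.4 units in every panel) of the 11 member probe sets in 3 CD47- EV arrays (red) and 3 WT EV arrays (blue), with the mean ± SD (n = 3). GNB1, UBQLN1, BNIP3 and the dimmer probe set of GNAI2 show no overlap between the groups, and the other panels do.

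CD47 itself, read by probe set 8089299, had log2 values of 4.58, 4.67 and 4.94 in CD47- EVs, against 4.72, 4.69 and 4.72 in WT EVs. The WT arrays lay close together and within the range of the CD47- arrays, of which replicate 3 was the highest. The means were 4.73 ± 0.19 in CD47- EVs and 4.71 ± 0.02 in WT EVs (SD, n = 3 arrays each). The log2 fold change was 0.02 with a 95% confidence interval from -0.19 to 0.22 (adjusted p = 0.988, limma), and it turned to -0.09 without CD47- replicate 3. The mean of this probe set was above that of 24.7% of the OR probe sets, so the arrays do not check the labels through CD47.

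The counter-receptors and the ligand did not pass the test. SIRPA, an inhibitory receptor of myeloid cells, had log2 values of 6.10, 6.11 and 6.07 in CD47- EVs, against 6.13, 6.05 and 6.16 in WT EVs. All 6 arrays lay within a narrow band, and the log2 fold change was -0.02 (95% confidence interval -0.18 to 0.14, adjusted p = 0.981, limma). It had the other sign, 0.04, after centering on the OR probe sets, and 0.0030 without WT replicate 3.
SIRPG, the member of the family found on T cells, had 6.58, 6.60 and 6.62 in CD47- EVs, against 6.79, 6.72 and 6.53 in WT EVs. The CD47- arrays lay close together between the lowest and the middle WT array, with a log2 fold change of -0.08 (95% confidence interval -0.26 to 0.10, adjusted p = 0.906, limma). It was -0.02 without WT replicate 1 and -0.15 without WT replicate 3. On average it exceeded 91.9% of the OR probe sets, and SIRPA exceeded 76.4%.
THBS1 had log2 values of 5.31, 5.54 and 5.43 in CD47- EVs, against 5.82, 5.57 and 5.37 in WT EVs. WT replicates 1 and 2 were above every CD47- array and WT replicate 3 was within their range. The log2 fold change was -0.16 (95% confidence interval -0.40 to 0.08, adjusted p = 0.807, limma), an interval that reaches a fold of 0.757 at its lower end. The value was -0.04 without WT replicate 1, -0.27 without WT replicate 3 and -0.10 without CD47- replicate 1.

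UBQLN1, the ubiquilin that binds the CD47 tail and was first known as PLIC-1, had log2 values of 5.69, 5.73 and 5.78 in CD47- EVs, against 5.30, 5.40 and 5.32 in WT EVs. All CD47- arrays lay above all WT arrays. The mean was 5.74 ± 0.04 in CD47- EVs and 5.34 ± 0.06 in WT EVs (SD, n = 3 each), a 1.32-fold increase with a 95% confidence interval from 1.18 to 1.47 (log2 fold change 0.40, standard error 0.07, adjusted p = 0.0305, limma). UBQLN1 exceeded 53.3% of the OR probe sets on average, and its WT mean lay below the OR median. The call was close to the threshold, and without variance moderation the adjusted p was 0.364 (limma). The log2 fold change stayed between 0.37 and 0.43 when any 1 of the 6 arrays was left out, but the adjusted p was then from 0.0607 to 0.147, so UBQLN1 did not pass without any of CD47- replicates 1, 2 and 3 or WT replicates 1, 2 and 3.
UBQLN2 had 5.01, 5.20 and 4.98 in CD47- EVs, against 5.10, 5.11 and 4.94 in WT EVs. The groups overlapped, and the log2 fold change was 0.01 (95% confidence interval -0.17 to 0.20, adjusted p = 0.989, limma). It was -0.05 without CD47- replicate 2 and -0.04 without WT replicate 3.
Whether the ubiquilins moved unequally was asked from the log2 difference between UBQLN1 and UBQLN2 within each array, in which a shift common to an array cancels. The difference was 0.68, 0.54 and 0.80 in CD47- arrays, against 0.20, 0.29 and 0.38 in WT arrays. Its size within an array depends on the probes, and only its shift between the groups can be read. The groups did not overlap and the mean was 0.38 larger in CD47- arrays, with a p of 0.1 from a two-sided exact permutation test. That is the smallest p that 3 arrays against 3 allow (0.3 after adjustment over 3 pairs of related genes). UBQLN2 exceeded only 36.4% of the OR probe sets on average, where a rise could be missed. The shift of 0.38 thus largely repeats that of UBQLN1 and is no separate support.

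GNB1, the beta subunit that pairs with a gamma subunit in G protein signaling, was the member with the largest log2 fold change, 0.70 (standard error 0.09, adjusted p = 0.00182, limma). Its log2 values were 7.04, 7.19 and 7.30 in CD47- EVs, against 6.50, 6.55 and 6.40 in WT EVs. The lowest CD47- array lay clearly above the highest WT array. The mean was 7.18 ± 0.13 in CD47- EVs and 6.48 ± 0.08 in WT EVs (SD, n = 3 each), a 1.62-fold increase with a 95% confidence interval from 1.42 to 1.85. By its p value GNB1 ranked 40 of the 19460 probe sets, and on average it exceeded 95.6% of the OR probe sets. Its adjusted p was from 0.00194 to 0.0164 when any 1 array was left out.
GNAI2, an inhibitory alpha subunit that is abundant in lymphocytes, was read by a pair of probe sets that differed. Probe set 8079950, listed with 6 RefSeq mRNAs, had 5.54, 5.71 and 6.09 in CD47- EVs, against 5.34, 5.24 and 5.08 in WT EVs. All CD47- arrays lay above all WT arrays, replicate 3 being far above the other two. The log2 fold change was 0.56 (95% confidence interval 0.28 to 0.83, adjusted p = 0.0896, limma), which did not pass. It passed after centering on the OR probe sets (adjusted p = 0.0112, limma) and without CD47- replicate 1 (adjusted p = 0.0311, limma), and in 11 of 14 alternatives it did not. Without CD47- replicate 3 the log2 fold change was 0.40 (adjusted p = 0.231, limma), and without WT replicate 3 the adjusted p was 0.343 (limma). The test among probe sets brighter than the OR median says nothing for this probe set, which entered it only through its CD47- mean of 5.78, its WT mean being 5.22.
The other GNAI2 probe set, 8079964, is listed with 1 sequence and no RefSeq mRNA, and had 7.24, 7.08 and 7.14 in CD47- EVs, against 6.99, 6.92 and 7.11 in WT EVs. WT replicate 3 lay above CD47- replicate 2, and the log2 fold change was 0.15 (95% confidence interval -0.03 to 0.33, adjusted p = 0.72, limma).
GNAI3, the closest relative of GNAI2 among the members, had 4.77, 4.86 and 4.80 in CD47- EVs, against 4.77, 4.66 and 4.76 in WT EVs. The groups overlapped, and the log2 fold change was 0.08 (95% confidence interval -0.08 to 0.24, adjusted p = 0.894, limma).
With the brighter GNAI2 probe set, the log2 difference between GNAI2 and GNAI3 within an array averaged 2.35 ± 0.12 in CD47- arrays and 2.27 ± 0.07 in WT arrays (SD, n = 3 each; p = 0.6, two-sided exact permutation test). With the dimmer one, a choice made after the data were seen, it was 0.77, 0.85 and 1.30 in CD47- arrays, against 0.57, 0.58 and 0.32 in WT arrays (p = 0.1, exact permutation test). The GNAI2 probe set used therefore sets whether the groups overlap. For SIRPA and SIRPG the difference averaged -0.51 ± 0.04 in CD47- arrays and -0.57 ± 0.17 in WT arrays (SD, n = 3 each; p = 0.6, exact permutation test).

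**Figure D2:**
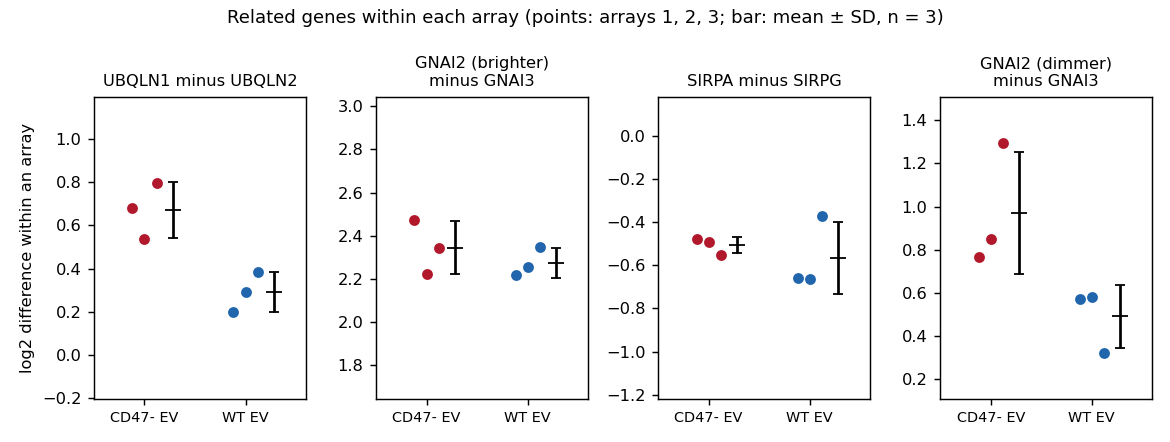
log2 difference between related genes within each array (vertical axis, spanning 1.4 units in every panel) in 3 CD47- EV arrays (red) and 3 WT EV arrays (blue), with the mean ± SD (n = 3). The groups do not overlap for UBQLN1 minus UBQLN2 and for the dimmer GNAI2 probe set minus GNAI3, and they overlap in the other panels.

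BNIP3, which takes part in mitophagy and cell death, had log2 values of 6.61, 6.79 and 6.95 in CD47- EVs, against 6.27, 6.58 and 6.28 in WT EVs. The lowest CD47- array and the highest WT array were nearly equal, although the groups did not overlap. The log2 fold change was 0.41 (95% confidence interval 0.17 to 0.64, adjusted p = 0.166, limma), which did not pass. BNIP3 passed after centering on the OR probe sets (adjusted p = 0.0449, limma), after which the median difference of all probe sets was 0.06 in place of 0.0036. CD47- replicate 3 held the highest CD47- value in 6 of the 11 member probe sets, replicate 2 in 4 and replicate 1 in 1. In WT EVs the highest value fell in replicate 1 for 4, in replicate 2 for 4 and in replicate 3 for 3 probe sets.

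**Figure D3:**
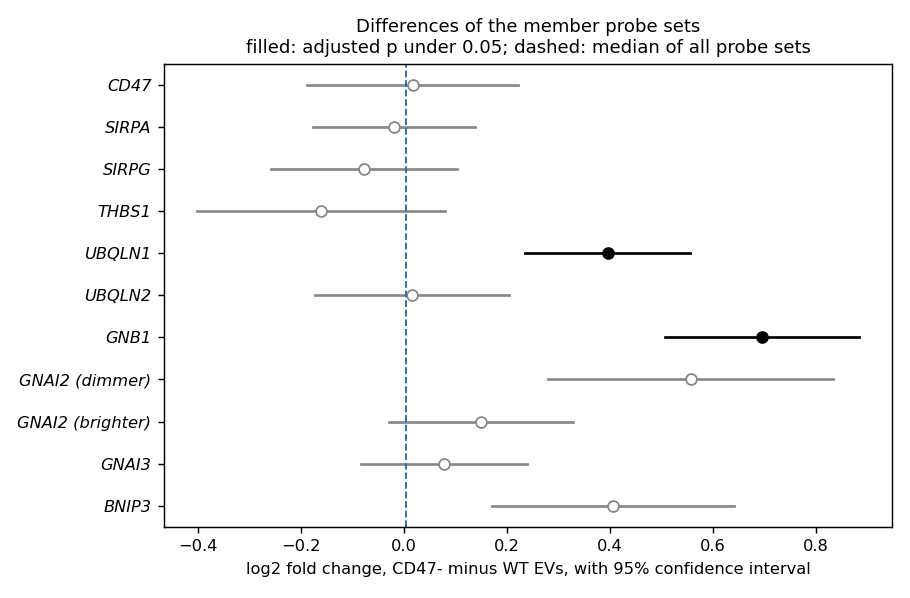
log2 fold change of CD47- over WT EVs for each member probe set (horizontal axis, points) with its 95% confidence interval (lines), filled where the adjusted p is under 0.05, and the median of all probe sets (dashed line). GNB1 (0.70) and UBQLN1 (0.40) are filled, and the intervals of BNIP3 and of the dimmer GNAI2 probe set also lie above 0.

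**Figure D4:**
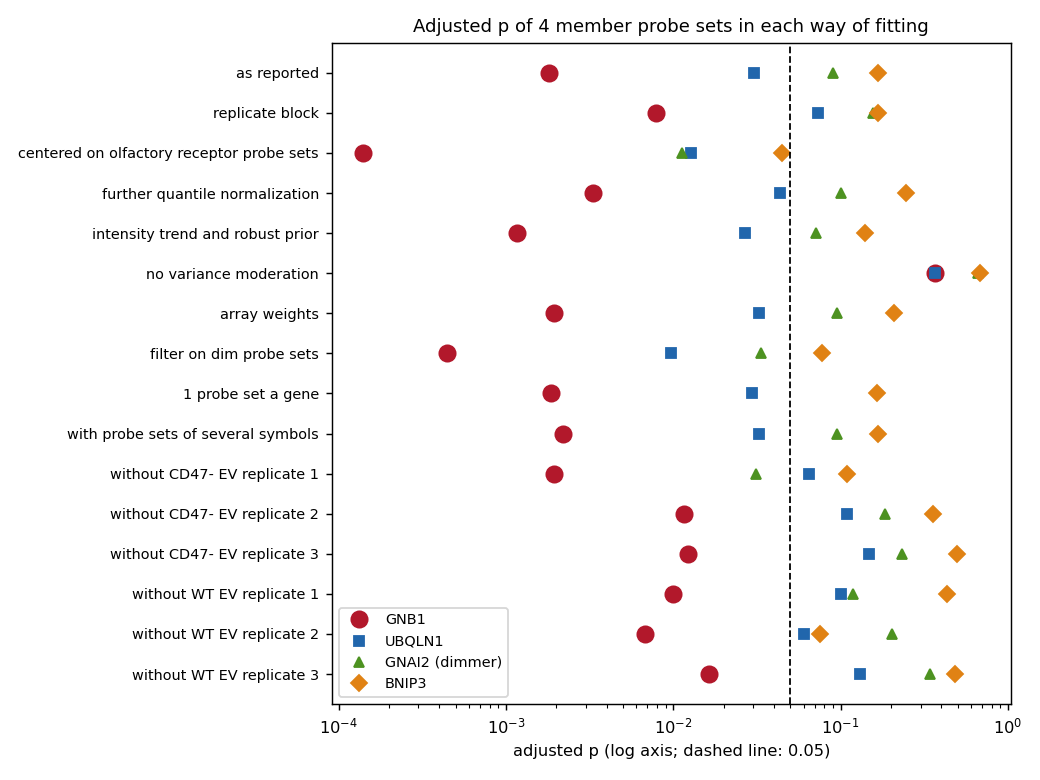
Adjusted p (horizontal log axis, with the 0.05 threshold dashed) of GNB1, UBQLN1, BNIP3 and the dimmer GNAI2 probe set for the fit as reported and each other way of fitting (rows). GNB1 lies left of the line in every row except that without variance moderation (0.364), while UBQLN1 lies right of it whenever an array is left out.

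The wider pathway was followed in 11 lists of genes around the members, which held 139 probe sets of 127 genes. Of these probe sets 1 was higher, 0 were lower, against 0.709% higher over all probe sets, and the median log2 fold change was 0.0060. The probe set that passed was that of GABARAP, an ATG8 family protein that builds autophagosomes and is known to bind BNIP3 relatives. GABARAP had log2 values of 5.28, 4.86 and 5.16 in CD47- EVs, against 4.70, 4.24 and 4.10 in WT EVs. The groups did not overlap, and the mean difference was 0.75 on the log2 scale with a standard error of 0.15 (adjusted p = 0.0375, limma). On average GABARAP exceeded only 24.7% of the OR probe sets, the same share as CD47. Without variance moderation its adjusted p was 0.625 (limma). Leaving out CD47- replicate 1 or 3, or WT replicate 2 or 3, gave GABARAP an adjusted p between 0.123 and 0.203 (limma).
Among the 20 probe sets of BNIP3 relatives, mitophagy and autophagy the other 19 did not pass and the median was 0.05. GABARAPL2, a relative of GABARAP, had a log2 fold change of 0.30, GABARAPL1 of -0.07, and BNIP3L, the closest relative of BNIP3, of 0.16 (adjusted p = 0.191, 0.915 and 0.588, limma).
None of the other G protein subunits passed. The 15 probe sets of other alpha subunits had a median of 0.0053. For GNAS, the stimulatory alpha subunit, the difference was 0.29 (adjusted p = 0.306, limma) and for GNAT2, a transducin of cones, 0.22 (adjusted p = 0.582, limma). The 17 probe sets of other beta and gamma subunits had a median of 0.03. GNG5, a gamma subunit, had 0.34 in one probe set (adjusted p = 0.139, limma) and 0.14 in the other (adjusted p = 0.814, limma), GNG4, another gamma subunit, 0.16 (adjusted p = 0.715, limma), and GNB2, a close relative of GNB1, 0.01 with a 95% confidence interval from -0.16 to 0.19 (adjusted p = 0.989, limma).
None of the 17 probe sets of Gi regulators passed (median 0.05), among them GPSM1 (log2 fold change 0.14), which binds inhibitory alpha subunits, and RGS2 (-0.13), which speeds GTP hydrolysis by alpha subunits. None of the 18 probe sets of cAMP and cGMP effectors passed (median -0.02), with ADCY8, an adenylyl cyclase, at -0.18 and GUCY1A1, a subunit of soluble guanylate cyclase, at -0.17.

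None of the 12 probe sets of other ubiquilins and their partners passed (median -0.03). ADRM1, a ubiquitin receptor of the proteasome, differed by 0.23 on the log2 scale (adjusted p = 0.383, limma) and PSMD4, another such receptor, by -0.18 (adjusted p = 0.715, limma). UBQLN4, a further ubiquilin, had 0.03 and 0.08 in its probe sets.
On the outside of the cell, the 4 probe sets of other thrombospondins had a median of -0.07, with THBS2 at -0.16 and THBS4 at 0.13. The 11 probe sets of other SIRP family genes and SIRP signaling had a median of -0.01, with SIRPD at -0.09 and PTPN11, the phosphatase SHP-2 that binds SIRPA, at -0.08. The 9 probe sets of other thrombospondin-1 receptors had a median of 0.02, with CALR, calreticulin, at 0.22 and LRP1, its partner in the membrane, at -0.08. The 9 probe sets of integrins that pair with CD47 had a median of -0.02, with ITGAV at -0.15 and ITGB1 at -0.16. None of the probe sets in these 4 lists passed.
None of the 8 probe sets of exportin-1 and its Ran partners, proteins of nuclear export, passed (median 0.06). RAN, the GTPase of this transport, had a log2 fold change of 0.34 in one probe set and 0.10 in the other (adjusted p = 0.342 and 0.892, limma). For RANBP3, a cofactor of exportin-1, it was 0.22 (adjusted p = 0.383, limma). For XPO1, exportin-1 itself, it was 0.05 with a 95% confidence interval from -0.12 to 0.21 (adjusted p = 0.951, limma). XPO1 exceeded only 21.9% of the OR probe sets on average, and the RAN probe set at 0.34 only 27.2%. Neither can show much at such a level.

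**Figure D5:**
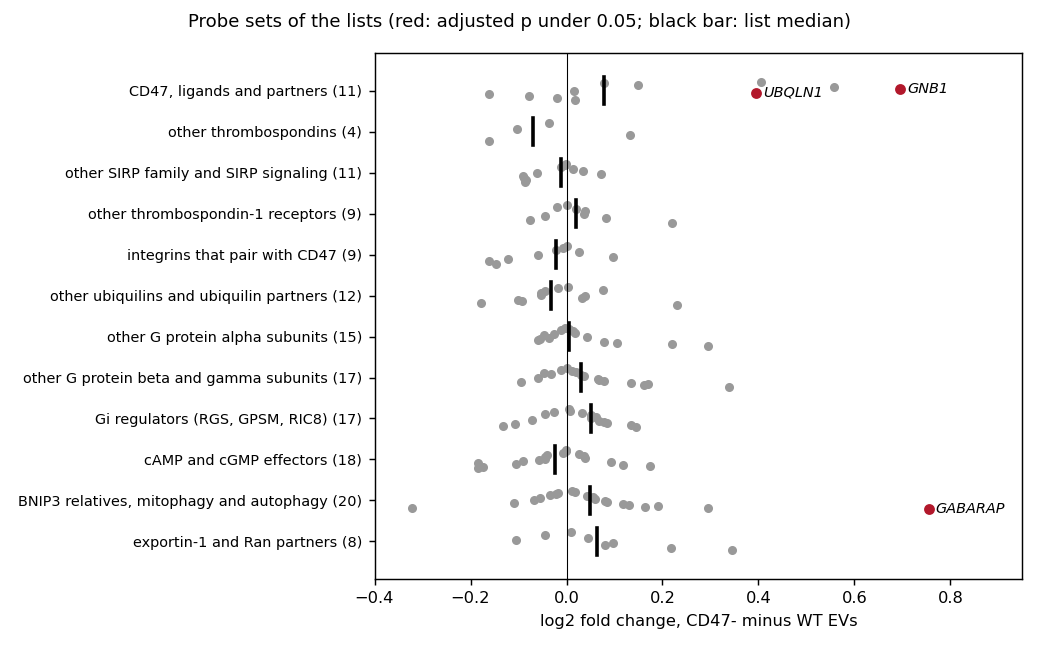
log2 fold change of CD47- over WT EVs (horizontal axis) for each probe set of the members and of 11 lists around them (rows, with the number of probe sets in parentheses), red where the adjusted p is under 0.05, with the median of each list (black bar). GNB1, UBQLN1 and GABARAP are the red points. The medians of the 11 lists lie between -0.07 and 0.06, and the bar of the members is at 0.08.

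The labeled cell type was looked at through 12 T cell genes, of which 8 had a mean above the OR median. The same held for 5 of 8 platelet genes, 3 of 9 monocyte and macrophage genes and 7976 of all 19460 probe sets. The count is therefore a weak check of the label. None of the T cell genes passed. The mean of their log2 values was from 6.04 to 6.09 in CD47- arrays and from 5.87 to 5.99 in WT arrays, so this list moved with the groups. CD3E, CD3G and CD3D had log2 fold changes of 0.37, 0.34 and 0.28 without overlap, while the groups overlapped for each other T cell gene. Separated means were not particular to this list. The exportin-1 and Ran list had 5.448 to 5.505 in CD47- arrays, against 5.319 to 5.425 in WT arrays. Other G protein beta and gamma subunits had 5.136 to 5.179 in CD47- arrays, against 5.063 to 5.119 in WT arrays. For BNIP3 relatives, mitophagy and autophagy it was 5.162 to 5.229 in CD47- arrays, against 5.093 to 5.132 in WT arrays. Integrins that pair with CD47 were lower, with 5.044 to 5.069 against 5.096 to 5.1. The part of such shifts in the changes of GNB1 and UBQLN1 was not tested. For THBS1, known from platelets, and SIRPA, known from myeloid cells, the markers of those cells were set beside. The 8 platelet probe sets averaged 5.50 to 5.51 in CD47- arrays and 5.44 to 5.58 in WT arrays, and the 9 of monocytes and macrophages 4.98 to 5.05 in CD47- arrays and 4.98 to 5.05 in WT arrays. None of the platelet, monocyte, B cell, erythroid, liver, fibroblast or endothelial markers passed, and their list medians lay between -0.06 and 0.01. The median of the OR probe sets was 5.36, 5.50 and 5.37 in CD47- arrays, against 5.51, 5.46 and 5.45 in WT arrays, which is the difference that the centering removes.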

How the data were processed

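EV RNA of 3 CD47- JinB8 and 3 WT Jurkat preparations was measured on 6 arrays, grouped by the submitters' titles. The authors deposited log2 values, which Affymetrix Expression Console had summarized by RMA according to the submitters' processing notes. RMA corrects background, normalizes by quantiles and summarizes probes, so absolute RNA amounts are lost. The sources used here give no tool versions. Gene symbols came from GEO's platform annotation: 19460 had 1 symbol, 1754 several and 12083 none. limma 3.58.1 in R 4.3.3 (lmFit, eBayes) was fitted to all 19460, with an adjusted p under 0.05. On simulated data for this comparison with 19460 probe sets, it recovered 62% of changes of 0.5 on the log2 scale and 95% of changes of 1, with 3.68% false calls. The simulated noise was independent between probe sets, so these shares leave out shifts that many probe sets of an array have in common. The 10 members and all lists were chosen with earlier results of these data known. Named were all members, the 3 genes most like CD47 and, in each pathway list, up to 4 probe sets that passed or else the 2 with the smallest p. A few relatives of members were chosen after their values were seen (GABARAPL1, GABARAPL2, BNIP3L, GNB2, UBQLN4, BAG6, XPO1). So were CD3E, CD3G and CD3D, the T cell genes without overlap. Alternatives were a block for the replicate number, centering on OR probe sets, a further quantile normalization, other variance models, array weights, filters on probe sets and leaving out each array.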

Additional observations from a re-analysis of the deposited data

How the results depend on the processing

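As reported, 138 probe sets were higher, 3 were lower, 2 member probe sets were higher (GNB1 and UBQLN1) and 1 list probe set was higher (GABARAP). With the replicate number as a block, 1 member was higher (UBQLN1 had an adjusted p of 0.0732, limma) and 108 of all probe sets. The sources used here do not say whether same-numbered arrays were prepared together. Their deviations from the group means correlated with r of 0.0222, -0.0174 and -0.0441, which cannot settle this with 3 arrays a group. Centering on the olfactory receptor probe sets gave 257 probe sets that were higher and 4 members (GNB1, UBQLN1, GNAI2 and BNIP3), and turned SIRPA to 0.0412. Without variance moderation, 1 probe set was higher, 0 were lower, and 0 members and 0 list probe sets were higher. A filter on dim probe sets gave 0 list probe sets that were higher, because GABARAP was below it, and 3 members, of which UBQLN1 and GNAI2 entered only through their CD47- means, so this filter bears on neither. Without 1 array, from 64 to 112 probe sets were higher and from 1 to 7 lower, with from 1 to 2 members and from 0 to 1 list probe sets higher; the lowest count of all probe sets was without WT replicate 3. GNB1 was called in 14 of 15 alternatives and UBQLN1 in 7 of 15, that filter among them. Without 1 array, the log2 fold change of CD47 lay between -0.0878 and 0.0914, of SIRPA between -0.0496 and 0.0030, and of UBQLN2 between -0.0514 and 0.0556. The difference between UBQLN1 and UBQLN2 within arrays shifted by 0.38, and by 0.32 to 0.45 in the 8 alternatives run for it. Leaving out an array could not turn its sign, since the groups did not overlap. Centering could not either, since it cancels within an array. The causes were not tested. No member probe set was called lower in any alternative. CD47, GNAI3, UBQLN2, GABARAP and XPO1 were among the genes dimmer than the OR median, which limits what their probe sets can show.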

Other observations

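The probe sets that followed that of CD47 most closely over the 6 arrays were those of AADACL3, of a SNORD115 snoRNA (probe set 7982082) and of TAF4B, with Pearson's r of 0.989, 0.982 and 0.981. These are the highest of 19460 probe sets over 6 arrays that share their preparations, and they describe this ranking only. All of them had, like CD47, the highest value in CD47- replicate 3. AADACL3, a gene of the arylacetamide deacetylase family, had log2 values of 5.18, 5.32 and 5.73 in CD47- EVs, against 5.40, 5.33 and 5.33 in WT EVs. TAF4B, a subunit of the transcription factor TFIID, had 3.28, 3.43 and 3.73 in CD47- EVs, against 3.45, 3.47 and 3.44 in WT EVs. Probe set 7982082, of a snoRNA in an imprinted cluster, had 2.75, 2.80 and 2.91 in CD47- EVs, against 2.84, 2.80 and 2.81 in WT EVs.
BAG6, a chaperone that works with ubiquilins and lies in the MHC region, was read by 3 probe sets, of which 2 held identical values in all arrays. Their log2 values were 5.97, 6.06 and 6.19 in CD47- EVs, against 6.43, 6.09 and 5.85 in WT EVs, so that the WT arrays spread more widely than the difference of means (-0.05). UBQLN4 had 6.88, 6.79 and 6.88 in CD47- EVs and 6.83, 6.82 and 6.81 in WT EVs in its brighter probe set. Its dimmer probe set had 5.08, 4.36 and 4.35 in CD47- EVs and 4.10, 4.40 and 5.06 in WT EVs, a spread over arrays that the brighter one did not show.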
